A study of Mus musculus with 1119 samples.

Results

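The resting hair follicle of the mouse at postnatal day 21 (P21) was compared between its 2 epithelial stem cell compartments, the bulge and the hair germ below it. The cells were chosen by their sample titles, which carry 1 of 2 prefixes, and by the authors' annotation, in which every cell of the first prefix is a telogen bulge stem cell and every cell of the other a telogen hair germ cell. There were 110 such cells among the 1119 of the series. Those with at least 2000 genes at 1 TPM or more were kept, where TPM is the length-corrected share of a cell's transcripts, which left 39 of 39 bulge cells and 68 of 71 hair germ cells. All came from back skin of P21 mice of mixed sex and of the strain Lgr5-eGFPiresCreER;R26-tdTomato, in which, as background, the Lgr5 locus drives eGFP and an inducible Cre recombinase and the Rosa26 locus holds a tdTomato reporter. They were sorted one by one on GFP, tdTomato, integrin α6, integrin b1, CD34 and Pcadherin, and made into full-length cDNA libraries by Smart-seq2. The gates that parted the compartments are not given in the labels, so the levels of Cd34 (CD34), Cdh3 (P-cadherin), Itga6, Itgb1 and Lgr5 are the sort's own and are no finding.

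The labels name no animal, so each compartment is 1 pool of cells and no difference could be tested. Values are given as the spread over single cells, shares of cells with their exact (Clopper-Pearson) 95% interval for counting error only, and differences as bulge minus hair germ of the mean log2(TPM + 1). Genes were compared where at least 30% of the cells of either compartment held 1 TPM or more, and a gene counts as 2-fold apart where that difference is 1 or more in either direction. In the titles 31 well names occur under both prefixes, so the compartments were not on 1 plate, and plate and compartment cannot be told apart. The median number of genes per cell, with its range, was 5529 (3546 to 9309) in bulge cells and 6294 (4381 to 9637) in hair germ cells. Spike-in RNA took a median of 14.4 (6.09 to 37.7)% of all TPM in bulge cells and 10.8 (3.63 to 20.02)% in hair germ cells. Ribosomal RNA took 53.4 (33.4 to 61.3)% in bulge cells and 52.98 (42.2 to 62.1)% in hair germ cells.

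The bulge holds the slow-cycling stem cells of the follicle, attached to the old hair and kept quiet by BMP and FGF signals and by factors such as NFATC1. The hair germ is the small cluster of cells between the bulge and the dermal papilla, the mesenchymal signalling centre. It is the first part of the epithelium to divide when WNT, SHH and TGF-beta signals start a new growth phase, and its cells give rise to the matrix that builds the hair.

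Bulge cells carried their markers without exception, and hair germ cells were mixed in theirs. Dmkn, which encodes the secreted epidermal protein dermokine, lay at 303.6 to 1863 TPM (median 869) in bulge cells, against 0 to 1598 TPM (median 0) in hair germ cells, a difference of 6.14. Every bulge cell held it, and 3 hair germ cells lay above the bulge median. Postn, the matricellular protein periostin, lay at 33.2 to 1099 TPM (median 299.1) in bulge cells, against 0 to 507 TPM (median 0) in hair germ cells, a difference of 5.55. For Cd34, a sort marker, the levels were 24.6 to 787 TPM (median 324.1) in bulge cells, against 0 to 291.9 TPM (median 1.71) in hair germ cells. Foxi3, a forkhead transcription factor of hair placodes and germs, lay at 0 to 177.6 TPM (median 0) in bulge cells, against 0 to 305.3 TPM (median 52.4) in hair germ cells, a difference of -4.03. It was held by 4 of 39 bulge cells and 52 of 68 hair germ cells. Lef1, a transcription factor that acts with beta-catenin in WNT signalling, lay at 0 to 99.04 TPM (median 0) in bulge cells, against 0 to 246.3 TPM (median 29.2) in hair germ cells, a difference of -2.86. It was held by 12 of 39 bulge cells and 56 of 68 hair germ cells.

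**Figure D1:**
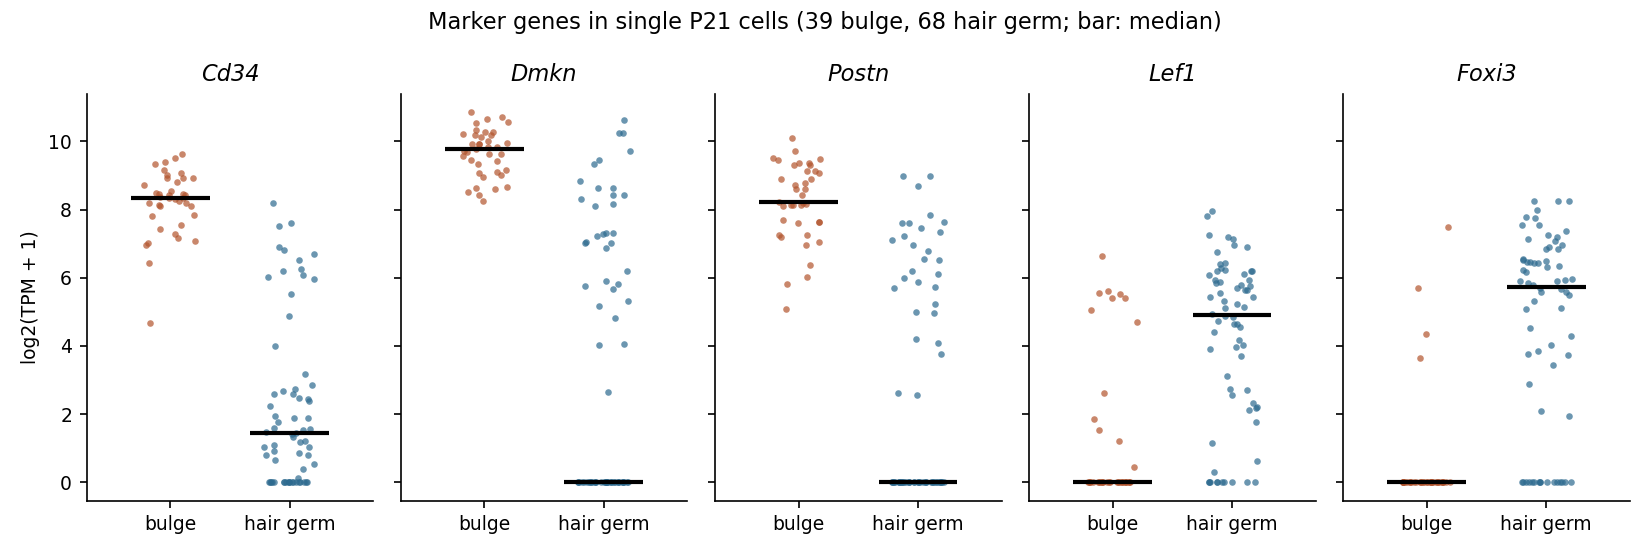
Level of 5 marker genes in each kept cell as log2(TPM + 1), with 39 bulge cells at the left and 68 hair germ cells at the right of each panel. A point is 1 cell and a bar the median. All bulge cells lie above 0 for Cd34, Dmkn and Postn, while hair germ cells spread from 0 up to bulge levels, and most bulge cells are at 0 for Lef1 and Foxi3.

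Counted per cell, all 39 bulge cells held Cd34, Dmkn and Postn at 1 TPM or more, and 25 of them held neither Lef1 nor Foxi3, 12 held 1 of the pair and 2 held both. Among the 68 hair germ cells, 14 held both germ markers and no bulge marker, or 20.6% (11.7 to 32.1). A further 18 held both germ markers with 1 bulge marker, 9 with 2 and 8 with all 3. All 3 bulge markers and neither germ marker were found in 5 hair germ cells, or 7.35% (2.43 to 16.3). Cd34 is a sort gene, and leaving it out, Dmkn and Postn with neither germ marker were held by 25 of 39 bulge cells and 6 of 68 hair germ cells, 64.1% (47.2 to 78.8) and 8.82% (3.31 to 18.2). The authors' annotation names these cells hair germ, and they were kept as labelled.

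Markers of other skin cells were seen in both compartments. At least 1 of 7 infundibulum and isthmus markers was held by 29 of 39 bulge cells and 60 of 68 hair germ cells, with a summed level of up to 203.8 TPM in the bulge and 664 TPM in the germ. At least 1 of 7 sebaceous gland markers was held by 25 bulge cells and 43 hair germ cells, at up to 149.4 TPM in the bulge and 184.7 TPM in the germ. Markers of differentiated epidermis were held by 11 bulge cells and 39 hair germ cells, at up to 64.05 TPM in the bulge and 108.95 TPM in the germ, and those of hair shaft and inner root sheath by 5 bulge cells and 19 hair germ cells, at up to 25.6 TPM in the bulge and 48.05 TPM in the germ. The part of these markers in the results was not tested. At least 1 of 6 Schwann cell markers was held by 4 bulge cells and 13 hair germ cells. Of 6 endothelial markers, 5 were at 0 in every bulge cell and 4 in every hair germ cell, and the summed level reached 1.52 TPM in bulge cells and 1.73 TPM in hair germ cells. Of 9 immune markers, 5 were at 0 in every cell of each compartment. Of 10 fibroblast and dermal papilla markers, at most 2 were held by a bulge cell, while 3 hair germ cells held 3 or more and 1 of them held 7, with a summed level of 9855 TPM. One bulge cell held 3 of 6 muscle and pericyte markers, at 667 TPM. Without these 4 cells, 3.59% of the compared genes were 2-fold or more higher in the bulge and 11.7% lower. Of 8 melanocyte markers, Tyrp1, Mlana and Kit were at 0 in every cell of both compartments, but Mitf, a transcription factor of pigment cells, was held by 36 of 39 bulge cells and 35 of 68 hair germ cells, a difference of 2.30.

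Over the whole table, 8967 genes could be compared. Of them 1245 (13.9%) were 2-fold or more apart, and in the bulge 910 (10.1%) were lower and the rest (3.74%) higher. At 4-fold, 89 (0.993%) were higher and 92 (1.03%) lower. The median gene lay at -0.29, and 2612 genes (29.1%) lay above 0, beside fewer genes per cell and a higher spike-in share in the bulge. The part of those shifts in the count of lower genes was not tested. With the median difference subtracted from every gene, 588 genes were 2-fold higher and 410 lower. With each cell rescaled to its own RNA, leaving out the rows of spike-ins, ribosomal RNA and mitochondria, 602 were higher and 1388 lower. With a pseudocount of 10 in place of 1, 1.13% were higher and 1.01% lower. Of the genes taken by the naming rule and 2-fold apart, 50.7% came under 2-fold at that pseudocount, among them Gli1, Ptch1, Axin2, Tcf7, Wnt10b, Notum, Inhbb, Fgf18, Nog, Cux1, Etv5, Tgfa and Ghr. Of the compared genes 19.1% passed the filter in 1 compartment only, and for them the filter itself favours a difference.

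**Figure D2:**
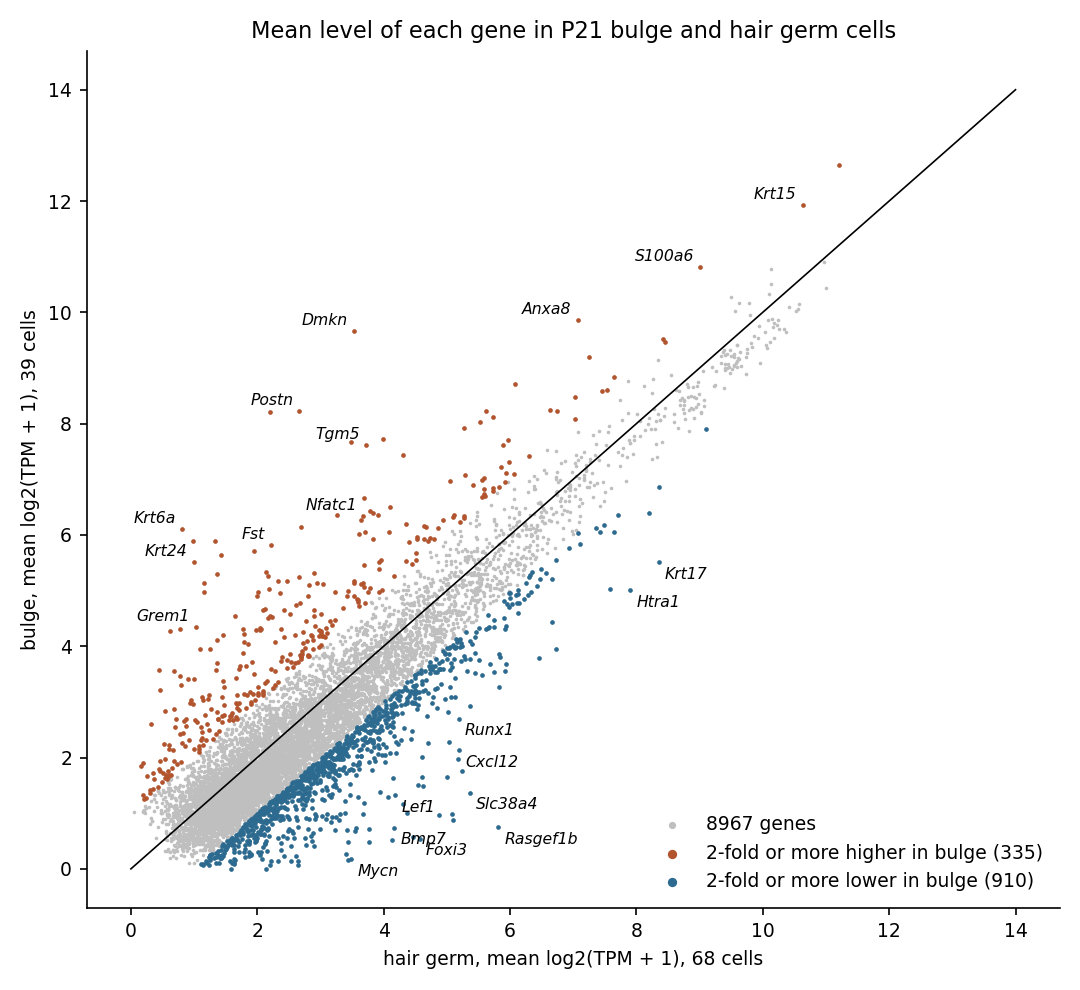
Mean log2(TPM + 1) of each of 8967 genes in 39 bulge cells (vertical axis) and 68 hair germ cells (horizontal axis), with the line of equal levels. Coloured points are the 1245 genes 2-fold or more apart, of which 910 are lower in the bulge and lie under the line.

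Of 15 compared bulge identity genes outside the sort, all 15 were higher in the bulge and 10 of them 2-fold or more, with a median difference of 1.43. The list holds the markers Dmkn and Postn and was chosen with earlier results of these data known, so its direction is a description. Of the 15, 3 passed the filter in 1 compartment only. Krt15, the basal keratin used to mark bulge cells, was abundant in both, at 1196 to 8449 TPM (median 3971) in bulge cells, against 0 to 7588 TPM (median 1810.2) in hair germ cells, a difference of 1.28. Angptl7, a secreted angiopoietin-like protein, was close to an on and off gene, with 0 to 768 TPM (median 85.4) in bulge cells, against 0 to 358.7 TPM (median 0) in hair germ cells, a difference of 4.92, and it was held by 35 of 39 bulge cells and 12 of 68 hair germ cells. By contrast Lhx2 (0.50), Foxc1 (0.37), Tbx1 (0.26) and Tcf7l1 (0.20), all bulge transcription factors, were less than 2-fold apart. Krt15 was under 2-fold apart as a ratio of mean TPM, at 0.84 on the log2 scale.

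The hair germ identity list was split. Of 9 compared genes, 5 were 2-fold or more lower in the bulge (Foxi3, Lef1, Runx1, Gli1 and Axin2), and 2 were higher, Fst and the homeobox gene Dlx3 (1.44). Runx1, a transcription factor needed for timely entry into growth, lay at 0 to 84.2 TPM (median 7.40) in bulge cells, against 0 to 212.1 TPM (median 43.3) in hair germ cells, a difference of -2.49, and 2 bulge cells exceeded the germ median. The median of the list was -2.01. It holds the markers Lef1 and Foxi3, and 2 of its 9 compared genes passed the filter in 1 compartment only.

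Averaged per cell over each identity list, the 39 bulge cells had a mean log2(TPM + 1) of 5.59 to 7.45 (median 6.38) for bulge genes and 0.669 to 3.82 (median 1.79) for germ genes. The 68 hair germ cells ran from 0.684 to 7.03 (median 4.18) for bulge genes and from 0.671 to 4.33 (median 2.80) for germ genes. The ranges of the compartments overlapped on both lists. Within the hair germ cells the lists ran weakly against each other (Spearman's rho -0.30 over 68 cells, which share a title prefix and differ in gene number), and within the bulge cells they did not move together (rho 0.004 over 39 cells). The hair germ cell with the fewest bulge genes was the one with 7 fibroblast markers.

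**Figure D3:**
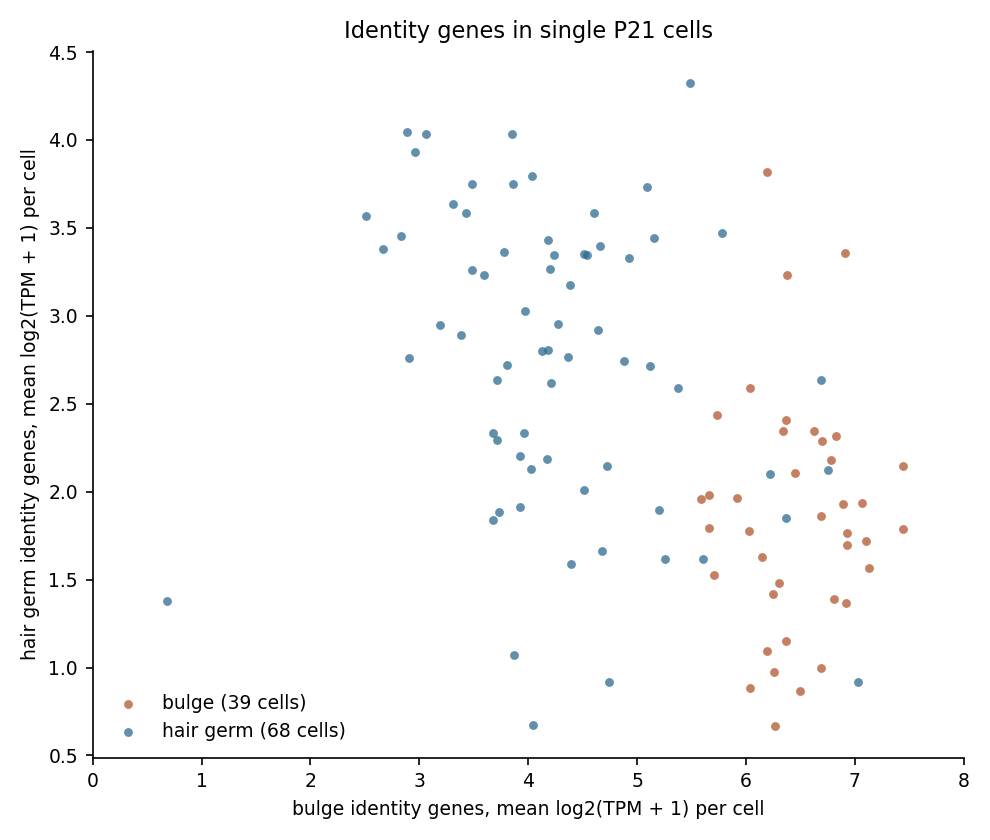
Mean log2(TPM + 1) per cell over the bulge identity genes (horizontal axis) and the hair germ identity genes (vertical axis), 1 point per kept cell. The 39 bulge cells lie between 5.59 and 7.45 on the horizontal axis, and the 68 hair germ cells between 0.684 and 7.03, so that a few hair germ cells stand among the bulge cells.

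Among transcription factors of bulge and outer root sheath, 6 of 18 compared were 2-fold or more higher in the bulge and 3 lower. The shares were 33.3% and 16.7%, beside 3.74% and 10.1% of all genes. Nfatc1, which holds bulge stem cells in rest, lay at 19.7 to 244.3 TPM (median 91.7) in bulge cells, against 0 to 232.5 TPM (median 18.8) in hair germ cells, a difference of 2.66. Barx2, a homeobox gene, lay at 0 to 90.5 TPM (median 21.4) in bulge cells, against 0 to 48.9 TPM (median 0) in hair germ cells, a difference of 2.44. Id2, an inhibitor of basic helix-loop-helix factors and a BMP target, lay at 0 to 326.7 TPM (median 104.4) in bulge cells, against 0 to 533 TPM (median 22.1) in hair germ cells, a difference of 2.41. Nfatc1 was held by 39 of 39 bulge cells and 52 of 68 hair germ cells, Barx2 by 37 of 39 bulge cells and 33 of 68 hair germ cells and Id2 by 38 of 39 bulge cells and 52 of 68 hair germ cells, so that the difference lay in both the share of cells and the level. Sox9, the factor that specifies follicle stem cells, was 1.44 apart but only 0.33 as a ratio of mean TPM, and 20 germ cells exceeded the bulge median. The 3 lower ones were Klf5 (-1.72), the vitamin D receptor Vdr (-1.34) and Gata3 (-1.01). Of these, Gata3 was under 2-fold with the median gene subtracted.

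Among transcription factors of germ and matrix, 13 of 21 compared were 2-fold or more lower in the bulge and 1 higher, with a median of -1.19. The shares were 61.9% and 4.76%, beside 10.1% and 3.74% of all genes. The list holds the markers Foxi3 and Lef1, and also Runx1, Gli1 and Dlx3 of the hair germ identity list. Of the 21, 8 passed the filter in 1 compartment only, and for them the filter itself favours a difference. Mycn, a MYC family growth regulator, lay at 0 to 13.1 TPM (median 0) in bulge cells, against 0 to 197.2 TPM (median 16.5) in hair germ cells, a difference of -3.31. It was held by 2 of 39 bulge cells and 47 of 68 hair germ cells, or 5.13% (0.627 to 17.3) and 69.1% (56.7 to 79.8), and no bulge cell reached the germ median. Etv4, an ETS factor induced by FGF signals, lay at 0 to 64.3 TPM (median 0) in bulge cells, against 0 to 233.6 TPM (median 36.7) in hair germ cells, a difference of -3.36. Cux1, a homeobox factor of the inner root sheath lineage, lay at 0 to 107.03 TPM (median 0) in bulge cells, against 0 to 225.5 TPM (median 7.58) in hair germ cells, a difference of -2.24. Tcf7, a partner of beta-catenin, differed by -2.02, Trps1 by -1.40 and Sox4 by -1.19, and Sox4 was under 2-fold with the median gene subtracted.

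Hedgehog pathway genes differed in both directions. Gas1, Cdon and Boc, co-receptors that help PTCH1 bind hedgehog ligands, were all 2-fold or more higher in the bulge. Gas1 lay at 3.83 to 218.8 TPM (median 64.6) in bulge cells, against 0 to 267.8 TPM (median 21.4) in hair germ cells, a difference of 2.10. Cdon lay at 0 to 196.2 TPM (median 33.1) in bulge cells, against 0 to 115.5 TPM (median 2.28) in hair germ cells, a difference of 2.06. Boc lay at 7.58 to 190.8 TPM (median 72.1) in bulge cells, against 0 to 219.2 TPM (median 37.4) in hair germ cells, a difference of 1.26. Gli1 and Ptch1, targets of the pathway, were lower. Gli1, the transcription factor whose level reads the signal, lay at 0 to 35.2 TPM (median 0) in bulge cells, against 0 to 68.5 TPM (median 9.39) in hair germ cells, a difference of -2.19, and was held by 12 of 39 bulge cells and 51 of 68 hair germ cells. Ptch1, receptor and target, lay at 0 to 88.2 TPM (median 0) in bulge cells, against 0 to 155.5 TPM (median 10.1) in hair germ cells, a difference of -1.84. Gli2 (-1.09) was lower by 2-fold too, though not with the median gene subtracted, while Gli3 (-0.11), Smo (-0.43) and Sufu (-0.79) were not. As a ratio of mean TPM, Gas1 (0.83) and Boc (0.66) were under 2-fold.

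Of 15 listed BMP and TGF-beta ligands, 5 could be compared. None of the 5 was higher in the bulge, and 4 were 2-fold or more lower, 80% beside 10.1% of all genes. Of the 5, 4 passed the filter in 1 compartment only, and for them the filter itself favours a difference. Bmp7 lay at 0 to 39.4 TPM (median 0) in bulge cells, against 0 to 167.1 TPM (median 26.8) in hair germ cells, a difference of -3.42, and was held by 23.1% (11.1 to 39.3) of bulge cells and 82.4% (71.2 to 90.5) of hair germ cells. Inhbb, the subunit of activin B, lay at 0 to 32.8 TPM (median 0) in bulge cells, against 0 to 51.9 TPM (median 8.62) in hair germ cells, a difference of -1.91. Tgfb1 (-1.68) and Tgfb3 (-1.16) were lower as well, Tgfb3 in 2 of 39 bulge cells and 22 of 68 hair germ cells, but it was under 2-fold with the median gene subtracted. Bmp2 was -0.80 apart.

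Of 13 compared genes on the list of antagonists, 5 were 2-fold or more higher in the bulge and none lower. The higher share was 38.5%, beside 3.74% of all genes, and 3 of the 13 passed the filter in 1 compartment only. The list also holds latent TGF-beta binding proteins, of which Ltbp2 is among the 5, so not every member is an antagonist. Fst, the activin-binding protein follistatin, lay at 0 to 588 TPM (median 82.6) in bulge cells, against 0 to 296.4 TPM (median 0) in hair germ cells, a difference of 3.60. Grem1, the BMP antagonist gremlin, lay at 0 to 188.3 TPM (median 25.9) in bulge cells, against 0 to 82.4 TPM (median 0) in hair germ cells, a difference of 3.32. Sostdc1, which binds BMPs and WNT co-receptors, lay at 0 to 272.2 TPM (median 46.3) in bulge cells, against 0 to 218.9 TPM (median 0) in hair germ cells, a difference of 2.28. Nog, the BMP antagonist noggin, was sparse, at 0 to 41.8 TPM (median 2.36) in bulge cells, against 0 to 32.7 TPM (median 0) in hair germ cells, a difference of 1.38, and was held by 53.8% (37.2 to 69.9) of bulge cells and 10.3% (4.24 to 20.1) of hair germ cells. Ltbp2, of the latent TGF-beta binding protein family, was 2.08 apart but 0.98 as a ratio of mean TPM. Of the 13, 8 lay above 0.

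Of 7 compared receptors of these ligands, 1 lay above 0 and 2 were 2-fold lower in the bulge, the type I receptor Acvr1b (-1.27) and the co-receptor Tgfbr3 (-1.12), both under 2-fold with the median gene subtracted. Of 6 BMP response genes, Id2 and Smad9 (1.29) were 2-fold higher in the bulge and none lower. Id1 (-0.72) and Id3 (0.76), the other widely expressed Id genes, were under 2-fold apart in opposite directions. Of 6 TGF-beta response genes, Tgfbi, Ctgf and Ltbp2 were higher and Skil, a repressor of SMAD proteins, lower (-1.45). Tgfbi, a secreted matrix protein, lay at 63.6 to 664 TPM (median 316.1) in bulge cells, against 0 to 579 TPM (median 77.5) in hair germ cells, a difference of 2.61.

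Genes of WNT signalling differed in both directions. Of the WNT ligand genes only Wnt4 and Wnt10b passed the filter on low values. Wnt10b, a ligand of the growing follicle, lay at 0 to 5.40 TPM (median 0) in bulge cells, against 0 to 115.8 TPM (median 0) in hair germ cells, a difference of -2.14, held by 2.56% (0.0649 to 13.5) of bulge cells and 45.6% (33.5 to 58.1) of hair germ cells. Wnt4 was -0.64 apart. Of 12 receptor genes, Fzd7 (1.60) and Fzd2 (1.34) were 2-fold higher in the bulge and Lgr6 (-1.93), an R-spondin receptor, and Ror2 (-1.67), a receptor for WNT5A, lower. Both Fzd genes were under 2-fold as a ratio of mean TPM, at 0.96 and 0.81.

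Of 8 compared WNT inhibitors, most of them secreted, 4 were 2-fold or more higher in the bulge and 2 lower. The shares were 50% and 25%, beside 3.74% and 10.1% of all genes, and 3 of the 8 passed the filter in 1 compartment only. Sfrp1, a decoy for WNT ligands, lay at 0 to 161.1 TPM (median 30.04) in bulge cells, against 0 to 72.99 TPM (median 4.05) in hair germ cells, a difference of 2.34. Dkk3, of the dickkopf family, lay at 37.9 to 394 TPM (median 138.8) in bulge cells, against 0 to 359.8 TPM (median 62.6) in hair germ cells, a difference of 1.43. Shisa2, of a family that in the frog holds frizzled receptors back inside the cell, was 1.58 apart. In the opposite direction, Wif1, which binds WNT ligands, lay at 0 to 29.6 TPM (median 0) in bulge cells, against 0 to 478 TPM (median 22.6) in hair germ cells, a difference of -3.29, held by 1 of 39 bulge cells and 43 of 68 hair germ cells. Notum, the enzyme that removes the lipid of WNT proteins and is itself a WNT target, was at 0 in every bulge cell, which allows a share of up to 7.69% if a count of 0 is read as up to 3 of 39 cells and up to 9.03% by the exact interval, and was held by 33.8% (22.8 to 46.3) of hair germ cells, the highest at 181.6 TPM. Dkk3 (0.81) and Shisa2 (0.91) were under 2-fold as a ratio of mean TPM.

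Of 9 compared WNT response genes, 5 were 2-fold or more lower in the bulge and none higher, with a median of -1.19. The lower share was 55.6%, beside 10.1% of all genes, and 3 of the 9 passed the filter in 1 compartment only. Axin2, the feedback inhibitor used as a readout of the pathway, lay at 0 to 129.4 TPM (median 1.27) in bulge cells, against 0 to 143.3 TPM (median 26.6) in hair germ cells, a difference of -2.01. Besides Axin2, Lef1, Tcf7 and Notum, the lower set held Znrf3, a ubiquitin ligase that removes frizzled receptors (-1.19, under 2-fold with the median gene subtracted). Ccnd1 (0.12) and Rnf43 (-0.14) were near equal.

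Of 14 listed FGF ligand genes 2 passed the filter on low values, Fgf1 in both compartments and Fgf18 through the bulge alone, and both were 2-fold or more higher in the bulge. Fgf1, acidic FGF, lay at 0 to 211.02 TPM (median 44.4) in bulge cells, against 0 to 197.99 TPM (median 3.60) in hair germ cells, a difference of 2.11. Fgf18, a ligand tied to follicle rest, was held by 41.03% (25.6 to 57.9) of bulge cells and 2.94% (0.358 to 10.2) of hair germ cells, at up to 108.03 TPM in the bulge and 68.6 TPM in the germ. Fgfr1, Fgfr2 and Fgfr3 were under 2-fold apart, with Fgfr2 at -0.84. The heparan sulphate co-receptors differed among themselves, with Sdc4 higher (1.61) and Sdc3 lower (-2.13). As a ratio of mean TPM, Fgf1 was 0.98 on the log2 scale, just under 2-fold.

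Dusp6, the ERK phosphatase induced by FGF receptors, lay at 0 to 105.9 TPM (median 0) in bulge cells, against 0 to 563 TPM (median 69.1) in hair germ cells, a difference of -4.22. It was held by 17.9% (7.54 to 33.5) of bulge cells and 80.9% (69.5 to 89.4) of hair germ cells, and 2 bulge cells exceeded the germ median. Etv5 (-1.50), Phlda1 (-1.98) and Spred2 (-1.47) were lower as well as Etv4. So 5 of 9 compared ERK feedback genes were 2-fold lower, 55.6% beside 10.1% of all genes, and none higher. Of the 9, 4 passed the filter in 1 compartment only, and the list had a median of -1.47. Rasgef1b, an exchange factor for RAP GTPases, had the largest negative difference of the named genes, with 0 to 62.7 TPM (median 0) in bulge cells, against 0 to 585 TPM (median 89.1) in hair germ cells, a difference of -5.06. Its germ median exceeded every bulge cell.

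**Figure D4:**
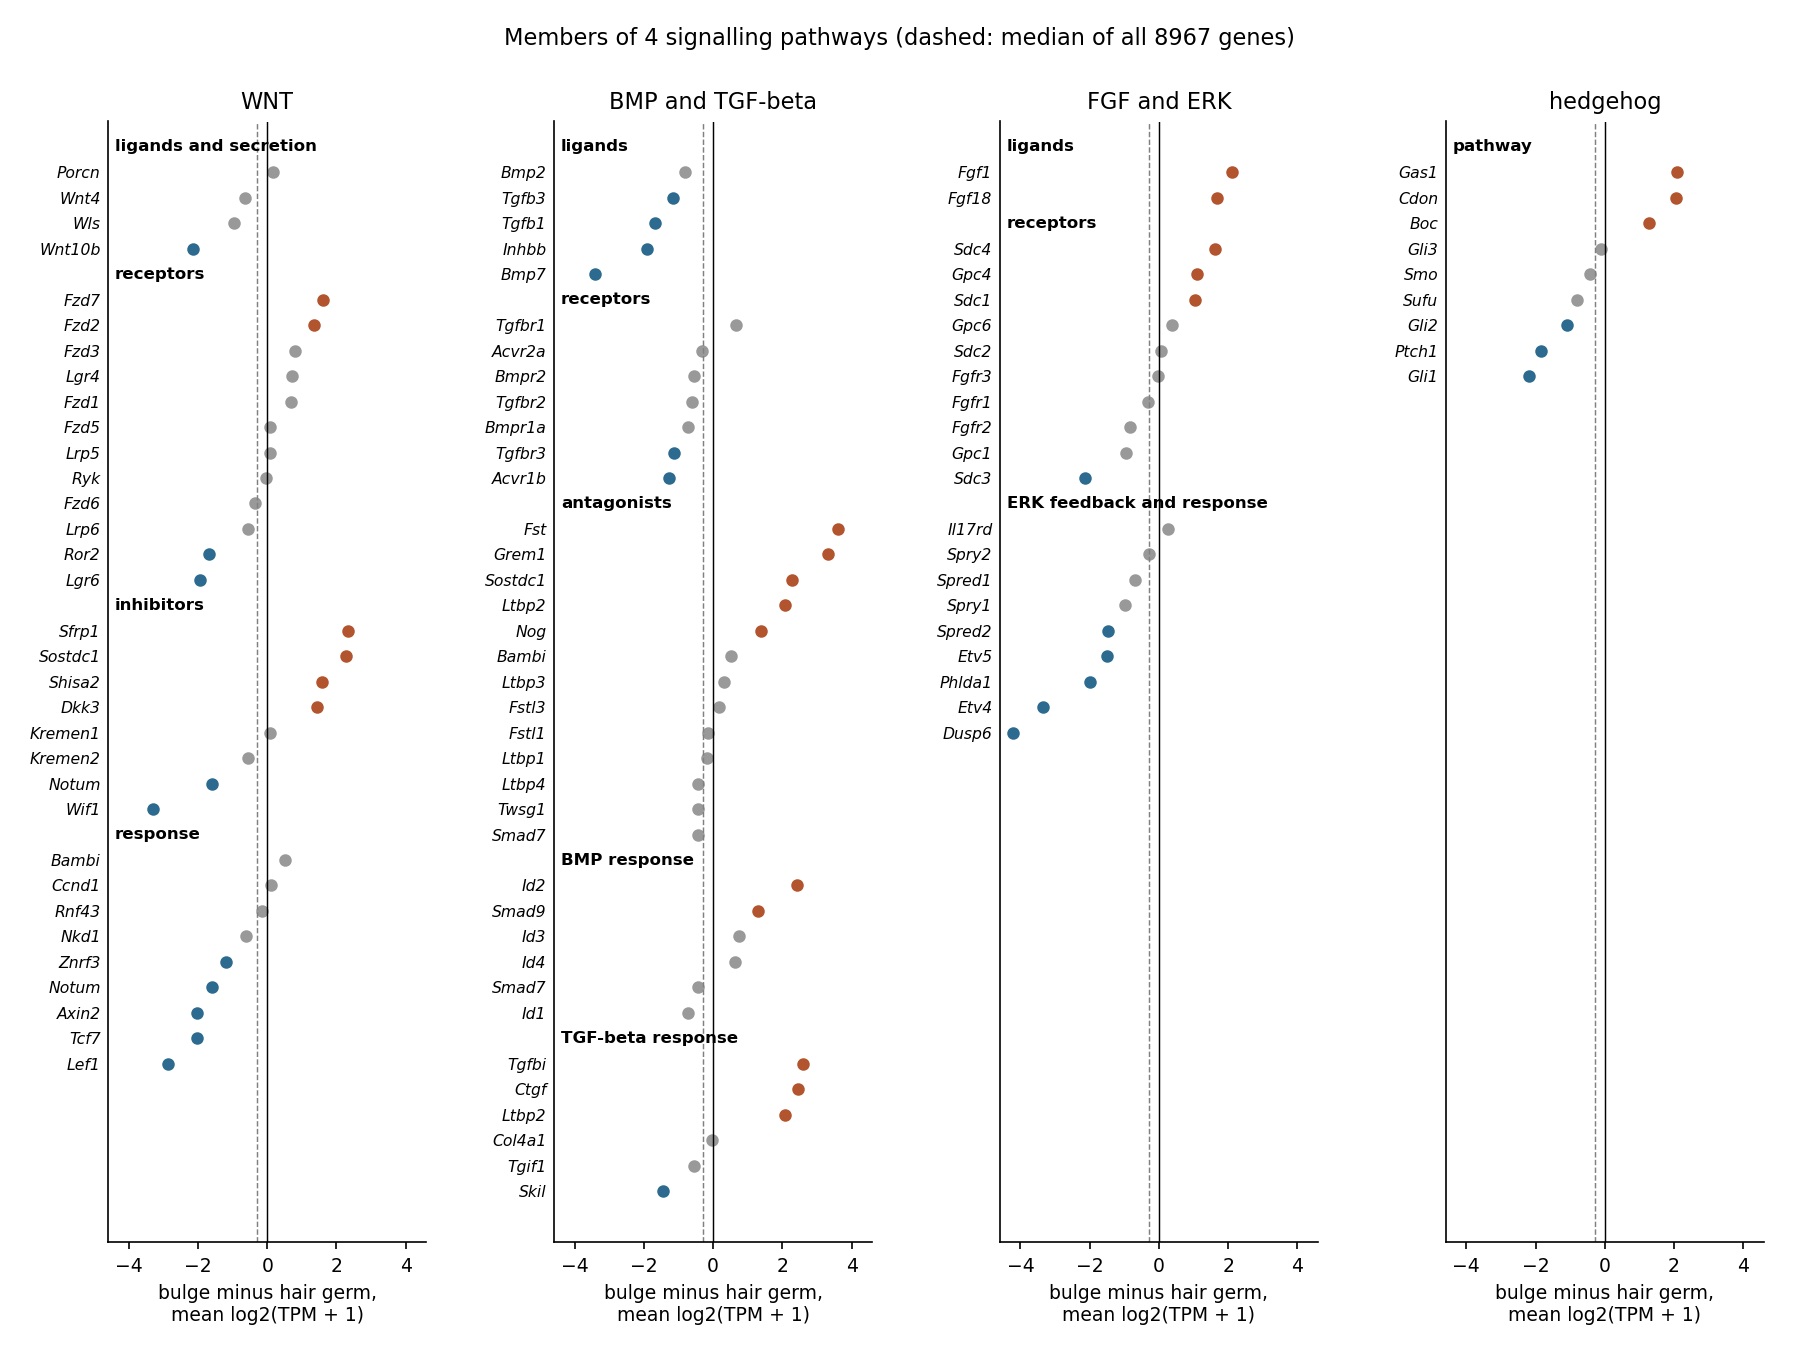
Difference of mean log2(TPM + 1), bulge minus hair germ, for members of the WNT, BMP and TGF-beta, FGF and ERK, and hedgehog lists that passed the filter on low values, ordered by role. Coloured points are 2-fold or more apart, the solid line marks 0 and the dashed line the median of 8967 genes, at -0.29. The hedgehog co-receptors Gas1, Cdon and Boc, the antagonists Fst and Grem1 and both FGF ligands lie to the right, and readouts such as Gli1, Axin2 and Dusp6 to the left.

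EGF family genes were all on the lower side (0 of 7 above 0, beside 29.1% of all genes, median -0.79), with Tgfa, a ligand of EGFR, at 0 to 55.7 TPM (median 0) in bulge cells, against 0 to 160.04 TPM (median 4.29) in hair germ cells, a difference of -2.13. Among Notch genes, 2 of 9 (22.2%, beside 10.1% of all genes) were 2-fold lower, Nrarp, a feedback regulator of Notch (-1.92), and Dtx3 (-1.18, not with the median gene subtracted), and none was higher. The median of the Notch list was -0.30, near that of all genes at -0.29. In the insulin-like growth factor list, the binding proteins Igfbp7 and Igfbp3 (1.71) were higher and Irs2, an adaptor of the receptor, lower (-1.06, not with the median gene subtracted). Igfbp7 lay at 0 to 258.1 TPM (median 52.3) in bulge cells, against 0 to 427 TPM (median 0) in hair germ cells, a difference of 2.90.

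Signals to neighbouring cells differed by compartment. Of 33 listed niche factors 14 passed the filter on low values, 5 of them in 1 compartment only. Of these 14 compared, 4 were 2-fold or more higher in the bulge (Angptl7, Angptl2, Cxcl14 and Ccl27a) and 6 lower (Cxcl12, Kitl, Edn2, Pdgfc, Pdgfa and Vegfa). The shares were 28.6% and 42.9%, beside 3.74% and 10.1% of all genes. Cxcl14, a chemokine, was the most abundant, at 86.2 to 2745 TPM (median 605) in bulge cells, against 0 to 1685 TPM (median 168.4) in hair germ cells, a difference of 1.95. Cxcl12, the ligand of CXCR4, lay at 0 to 92.96 TPM (median 0.370) in bulge cells, against 0 to 450.2 TPM (median 50.5) in hair germ cells, a difference of -3.06, and 2 bulge cells exceeded the germ median. Kitl, the ligand of KIT on melanocytes, lay at 0 to 78.7 TPM (median 0) in bulge cells, against 0 to 289.6 TPM (median 29.9) in hair germ cells, a difference of -2.52, and was held by 15 of 39 bulge cells and 55 of 68 hair germ cells. Edn2, an endothelin, was seen in 2 of 39 bulge cells and 23 of 68 hair germ cells, at up to 4.26 TPM in the bulge and 256.2 TPM in the germ. Angptl2 (1.75) was 0.66 as a ratio of mean TPM, and Pdgfa (-1.10) and Vegfa (-1.01) were under 2-fold with the median gene subtracted. Skint9, an immunoglobulin-like membrane protein of skin epithelium, was at 0 in every bulge cell, which allows a share of up to 7.69% by the limit of 3 cells and 9.03% by the exact interval, and was held by 80.9% (69.5 to 89.4) of hair germ cells, the highest at 21.2 TPM.

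**Figure D5:**
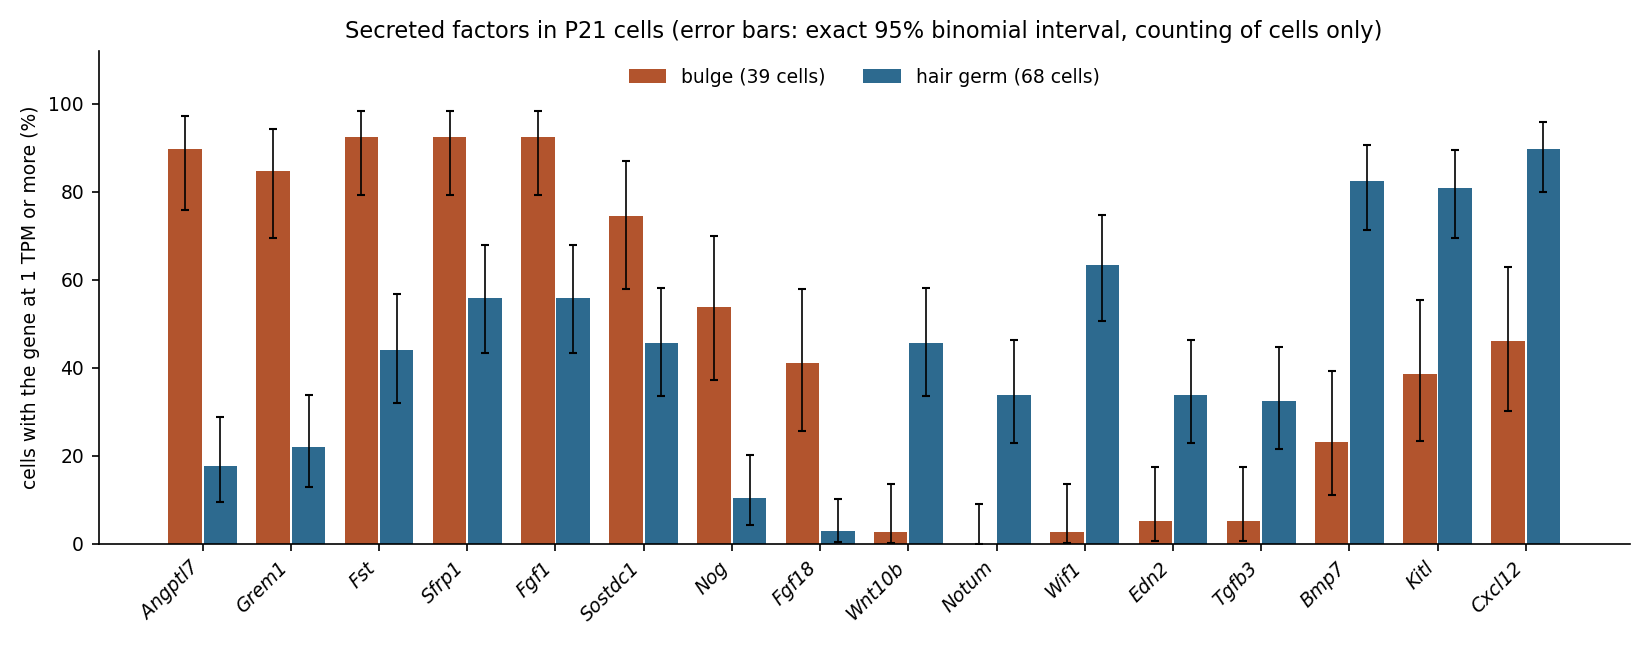
Share of cells with each of 16 secreted factors at 1 TPM or more, in 39 bulge cells (left bar of each pair) and 68 hair germ cells (right bar), with exact 95% binomial intervals for the counting of cells only. The first 8 genes are seen in more bulge cells and the last 8, from Wnt10b to Cxcl12, in more hair germ cells, with Notum at 0 in the bulge.

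Keratins differed in both directions. Krt6a, a keratin of the inner bulge layer and the companion layer, lay at 0 to 1188 TPM (median 125.4) in bulge cells, against 0 to 331.1 TPM (median 0) in hair germ cells, a difference of 5.29, and was held by 33 of 39 bulge cells and 9 of 68 hair germ cells. Krt24, a keratin of bulge cells, lay at 0 to 537 TPM (median 72.5) in bulge cells, against 0 to 346.5 TPM (median 0) in hair germ cells, a difference of 4.52. Krt80 lay at 8.98 to 183.5 TPM (median 84.7) in bulge cells, against 0 to 223.4 TPM (median 0) in hair germ cells, a difference of 3.46. Krt17 was lower, at 0 to 3258 TPM (median 120.3) in bulge cells, against 0 to 7455 TPM (median 537) in hair germ cells, a difference of -2.83, while Krt5 (0.64) and Krt14 (-0.50), the pair of basal cells, were under 2-fold apart. Of 8 keratins compared, 4 were 2-fold higher and 1 lower, 50% and 12.5% beside 3.74% and 10.1% of all genes. Krt6a and Krt6b are close copies, as are Krt14 and Krt17, and can share reads, so the split of reads within each pair is uncertain.

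Krt6a, Krt17 and Fgf18 are also on the list of 8 inner bulge and companion layer markers. At least 3 of these were held by 16 of 39 bulge cells and 8 of 68 hair germ cells, and their summed level was 16.95 to 3271 TPM (median 410.1) in bulge cells and 0 to 7605 TPM (median 547) in hair germ cells. Krt75 was seen in 3 of 39 bulge cells and 3 of 68 hair germ cells and Krt6b in none. Their part in the results for Krt6a and Fgf18 was not tested.

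Fibrillar and matricellular genes differed in both directions. Of 18 compared, 9 were 2-fold or more higher in the bulge and 8 lower, a share of 17 in 18 beside 13.9% of all genes, and 5 of the 18 passed the filter in 1 compartment only. Besides Postn and Tgfbi, Ecm1, extracellular matrix protein 1, was high in the bulge, at 4.90 to 979.7 TPM (median 245.8) in bulge cells, against 0 to 778 TPM (median 22.6) in hair germ cells, a difference of 3.74. Ctgf, a matricellular protein, differed by 2.45 but by 0.75 as a ratio of mean TPM. Col6a1, a chain of collagen VI, lay at 0 to 95.4 TPM (median 16.7) in bulge cells, against 0 to 451 TPM (median 0) in hair germ cells, a difference of 2.51. On the other side, Mfap2, a protein of microfibrils, lay at 0 to 175.4 TPM (median 0) in bulge cells, against 0 to 378.7 TPM (median 61.6) in hair germ cells, a difference of -4.11. Abi3bp, a matrix protein that binds ABI3, lay at 0 to 129.2 TPM (median 1.74) in bulge cells, against 0 to 405 TPM (median 49.1) in hair germ cells, a difference of -3.19. Fn1, fibronectin (-1.85), Thbs1, thrombospondin 1 (-2.36), and Efemp1, a fibulin (-1.58), were lower too.

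Of 21 compared basement membrane genes, 6 were 2-fold or more lower in the bulge and 2 higher, 28.6% and 9.52% beside 10.1% and 3.74% of all genes. Of the list 23.8% lay above 0, near the 29.1% of all genes, and the median was -0.45. Smoc2, a secreted calcium-binding matrix protein, lay at 0 to 95.3 TPM (median 0) in bulge cells, against 0 to 239.7 TPM (median 14.02) in hair germ cells, a difference of -2.53. Fras1, which anchors epithelium to dermis, lay at 0 to 87.2 TPM (median 0) in bulge cells, against 0 to 180.7 TPM (median 5.46) in hair germ cells, a difference of -2.49, held by 3 of 39 bulge cells and 42 of 68 hair germ cells. Lamb1, a laminin chain, differed by -2.33, Hspg2, the proteoglycan perlecan, by -1.70 and Frem2, the partner of FRAS1, by -1.40. The higher pair was Egfl6, a ligand of integrins placed by bulge stem cells (1.61), and Col17a1, the hemidesmosome collagen, at 169.3 to 893 TPM (median 447) in bulge cells, against 0 to 727 TPM (median 262.1) in hair germ cells, a difference of 1.18. Col17a1 was under 2-fold as a ratio of mean TPM, at 0.82.

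Desmosome and hemidesmosome genes went both ways, with 5 of 14 compared 2-fold higher and 3 lower, 35.7% and 21.4% beside 3.74% and 10.1% of all genes. The 5 include Col17a1, also counted among the basement membrane genes. Dsg3, a desmosomal cadherin, lay at 2.21 to 248.2 TPM (median 72.6) in bulge cells, against 0 to 139.8 TPM (median 20.95) in hair germ cells, a difference of 2.35. Dsp, the plaque protein desmoplakin, lay at 43.5 to 375.4 TPM (median 152.9) in bulge cells, against 0 to 281.2 TPM (median 64.2) in hair germ cells, a difference of 1.37. Dsg2, a more widely expressed desmosomal cadherin, was lower (-1.37) and held by 5 of 39 bulge cells and 35 of 68 hair germ cells. Among adherens, tight and gap junction genes, Ctnnb1, beta-catenin itself, differed by -1.17 and Cldn1 by -1.24, both under 2-fold with the median gene subtracted.

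Guidance and Eph genes were mixed. Plxna2, a semaphorin receptor, was higher in the bulge, at 0.110 to 145.8 TPM (median 30.01) in bulge cells, against 0 to 85.4 TPM (median 1.85) in hair germ cells, a difference of 2.90, and the semaphorin Sema3e was 2.18 apart. Nrp2, another semaphorin receptor subunit, was lower, at 0 to 30.6 TPM (median 0) in bulge cells, against 0 to 196.3 TPM (median 1.97) in hair germ cells, a difference of -2.38, and was held by 1 of 39 bulge cells and 37 of 68 hair germ cells. Among 13 Eph and ephrin genes, Epha4 (1.56), Efnb2 (1.37), Ephb6 (1.33) and Efna5 (1.205) were higher and Epha2 (-1.26) and Ephb4 (-1.17) lower. Epha4 (0.88) and Ephb6 (0.62) were under 2-fold as a ratio of mean TPM, and both lower ones were under 2-fold with the median gene subtracted.

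Calcium-binding proteins were among the most abundant transcripts that differed. S100a6 lay at 722 to 4072 TPM (median 1934) in bulge cells, against 12.8 to 3483 TPM (median 659) in hair germ cells, a difference of 1.80, and every bulge cell lay above the germ median. Anxa8, an annexin, lay at 323.1 to 1982 TPM (median 1039) in bulge cells, against 0 to 1556 TPM (median 230.4) in hair germ cells, a difference of 2.80. S100a4, a regulator of cell motility, was closer to on and off, at 0 to 1528 TPM (median 179.8) in bulge cells, against 0 to 482 TPM (median 0) in hair germ cells, a difference of 4.55, held by 30 of 39 bulge cells and 15 of 68 hair germ cells. Among proteases and inhibitors, Prss23, a serine protease, was higher, at 0.230 to 234.6 TPM (median 71.96) in bulge cells, against 0 to 118.4 TPM (median 0) in hair germ cells, a difference of 4.21. Lower were Adamts1, a metalloprotease that cleaves proteoglycans, at 0 to 96.9 TPM (median 0) in bulge cells, against 0 to 617 TPM (median 33.9) in hair germ cells, a difference of -3.61, the secreted serine protease Htra1, at 0 to 416 TPM (median 45.8) in bulge cells, against 21.01 to 2220.1 TPM (median 294.4) in hair germ cells, a difference of -2.89, and the lysosomal protease Ctsl, at 0 to 114.4 TPM (median 10.2) in bulge cells, against 0 to 523 TPM (median 96.7) in hair germ cells, a difference of -2.56. In all, 3 of 28 compared proteases and inhibitors were 2-fold higher and 8 lower, 10.7% and 28.6% beside 3.74% and 10.1% of all genes. Of the 28, 6 passed the filter in 1 compartment only. The median of this list was -0.42, beside -0.29 for the median gene.

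Neither compartment showed much expression of division genes. Of 20 genes of G2 and M phase, 19 were seen in under 30% of the cells of each compartment, and the other, Cenpa, a centromere histone, was held by 4 of 39 bulge cells and 23 of 68 hair germ cells. Of 11 compared S phase genes, 1 was 2-fold lower, Gins2 of the replicative helicase (-1.199, under 2-fold with the median gene subtracted), and none higher. That is 9.09% lower, near the 10.1% of all genes, and 6 of the 11 passed the filter in 1 compartment only. G1 regulators differed more. Cdk6, a kinase partner of D cyclins, lay at 0 to 83.8 TPM (median 2.19) in bulge cells, against 0 to 338.3 TPM (median 33.9) in hair germ cells, a difference of -1.91. Ccnd2, a D cyclin, lay at 0 to 375.7 TPM (median 0) in bulge cells, against 0 to 366.9 TPM (median 11.9) in hair germ cells, a difference of -1.70. Cdkn1a, the inhibitor p21, was held by 15 of 39 bulge cells and 13 of 68 hair germ cells and differed by 1.01, but by 0.83 as a ratio of mean TPM and by less than 1 in cells with at least 4000 genes. Ccnd2 was -0.95 as a ratio of mean TPM.

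The growth and metabolic lists given here had medians below 0, as the median gene had at -0.29. The ribosomal protein list had a median of -0.41 with 4.598% of its 87 compared genes above 0, beside 29.1% of all genes. It was taken by name pattern, which also takes in ribosomal S6 kinase genes such as Rps6ka2, so not every listed gene encodes a ribosomal protein. After each cell was scaled to its own RNA, that median was -0.24, above the median gene at -0.30 on the same scale. The list thus lay below the median gene in the main setting and above it after rescaling. In the main setting the medians were -0.39 for ribosome biogenesis genes, -0.20 for respiratory chain genes and -0.21 for glycolysis genes. Cholesterol synthesis genes were all 13 below 0, beside 29.1% of all genes above 0, with a median of -0.70, and 2 were 2-fold lower, Idi1 (-1.17) and Msmo1 (-1.22), which were under 2-fold with the median gene subtracted. Of these 13 genes, 8 passed the filter in 1 compartment only, beside 19.1% of all compared genes. For those 8 the filter itself favours a difference. Among the compared solute carriers 14 were 2-fold lower and 3 higher, so that 14.3% were apart, close to the 13.9% of all genes, and 26.9% lay above 0. Slc38a4, a transporter of neutral amino acids, lay at 0 to 57.5 TPM (median 0) in bulge cells, against 0 to 478 TPM (median 68.3) in hair germ cells, a difference of -3.99, and no bulge cell exceeded the germ median. Slc7a2, a cationic amino acid transporter, differed by -2.95 and Slc43a1, a carrier of large neutral amino acids, by -2.56. Slc29a1, a nucleoside transporter, was higher, at 0 to 315.7 TPM (median 112.2) in bulge cells, against 0 to 213.4 TPM (median 17.9) in hair germ cells, a difference of 3.08.

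Redox and stress genes split. Txn1, thioredoxin, lay at 14.01 to 376.8 TPM (median 90.3) in bulge cells, against 0 to 279.2 TPM (median 21.7) in hair germ cells, a difference of 2.64. The metallothioneins Mt2 (-2.55) and Mt1 (-1.80) were lower, and Mt2 lay at 0 to 2061 TPM (median 52.1) in bulge cells, against 0 to 2287 TPM (median 274.9) in hair germ cells. Among 21 immediate early and heat shock genes, Klf4 was higher (2.22), and Fos (-2.78), Junb (-1.78) and Ier2 (-1.18, under 2-fold with the median gene subtracted) were lower. Fos was held by 11 of 39 bulge cells and 43 of 68 hair germ cells, at up to 499 TPM in the bulge and 1440.5 TPM in the germ. The handling time of the cells is not given in the labels. Ifitm3 (-1.88) and Ly6e were lower among interferon-related genes, and Ly6e lay at 0 to 130.6 TPM (median 0) in bulge cells, against 0 to 948 TPM (median 53.5) in hair germ cells, a difference of -3.90.

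Circadian clock genes had a median of 0.88, with 7 of 10 compared above 0, beside 29.1% of all genes. Of the 10, 2 were 2-fold or more higher and none 2-fold lower. Tef, a PAR-domain transcription factor of the clock's output, lay at 0 to 205.6 TPM (median 28.4) in bulge cells, against 0 to 95.96 TPM (median 0) in hair germ cells, a difference of 2.25. Cry2, a repressor of the core loop, lay at 0 to 83.1 TPM (median 28.2) in bulge cells, against 0 to 118.8 TPM (median 5.81) in hair germ cells, a difference of 1.14, and it was 0.53 as a ratio of mean TPM. Nr1d1 (0.96), Rora (0.91), Nfil3 (0.90) and Per1 (0.86) were higher by less than 2-fold, and Arntl, the activator BMAL1, was at -0.62. The hour at which the mice were sampled is not given in the labels.

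The activator CLOCK and BMAL1 binds the E-box CACGTG, which reads the same on both strands. Of the 10 compared clock genes, 9 had at least 1 RefSeq promoter window of 250 bases before and 50 after the start (GRCm38.p6, 14 windows in all). The motif was found in 3 of these windows, at Per1 and Tef, and in 7.15% of all 32851 windows. All 3 windows that held the motif are shown, with the E-box in capitals. They lie at chr11:69098699-69098998 (Per1), chr15:81802423-81802722 (the first Tef start) and chr15:81811164-81811463 (the second Tef start), all on the plus strand.
Per1: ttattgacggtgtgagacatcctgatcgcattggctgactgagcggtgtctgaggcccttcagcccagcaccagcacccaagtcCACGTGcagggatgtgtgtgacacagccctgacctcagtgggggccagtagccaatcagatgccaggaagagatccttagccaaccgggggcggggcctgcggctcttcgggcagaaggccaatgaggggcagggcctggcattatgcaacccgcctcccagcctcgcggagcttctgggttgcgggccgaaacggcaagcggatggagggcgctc
Tef, first start: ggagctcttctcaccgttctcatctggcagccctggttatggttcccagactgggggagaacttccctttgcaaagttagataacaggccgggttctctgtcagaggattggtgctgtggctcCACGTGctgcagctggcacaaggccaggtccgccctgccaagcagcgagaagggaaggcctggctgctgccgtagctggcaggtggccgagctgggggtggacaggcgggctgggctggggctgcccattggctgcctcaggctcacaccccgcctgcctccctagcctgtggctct
Tef, second start: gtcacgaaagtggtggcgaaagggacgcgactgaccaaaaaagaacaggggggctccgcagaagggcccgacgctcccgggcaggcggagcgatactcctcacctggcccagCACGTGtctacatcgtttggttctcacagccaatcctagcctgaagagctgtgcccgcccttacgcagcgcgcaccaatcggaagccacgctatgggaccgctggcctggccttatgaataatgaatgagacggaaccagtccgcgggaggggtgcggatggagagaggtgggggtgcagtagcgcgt
In each window the E-box lies before the start. A match describes the letters of the window and nothing of binding. The motifs searched for the other pathways on both strands, CTTTGAT and CTTTGAA of TCF factors in WNT response genes, GGGTGGTC of GLI factors in hedgehog genes and CCGGAAG of ETS factors in ERK feedback genes, were found in 0 of 10, 0 of 7 and 0 of 8 windows, beside 8.65%, 0.807% and 8.86% of all windows.

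Among the genes with the largest differences, several belong to none of the lists. The following were higher in the bulge. Sbsn, the secreted protein suprabasin, lay at 0 to 2106 TPM (median 191.8) in bulge cells, against 0 to 457 TPM (median 10.7) in hair germ cells, a difference of 4.18. Tgm5, a transglutaminase, lay at 41.3 to 480.3 TPM (median 214.4) in bulge cells, against 0 to 320.6 TPM (median 24.9) in hair germ cells, a difference of 3.89. Calml3, a calmodulin-like protein of epithelia, lay at 0 to 893 TPM (median 199.9) in bulge cells, against 0 to 421 TPM (median 25.8) in hair germ cells, a difference of 2.98. Chat, the enzyme that makes acetylcholine, lay at 0 to 142.5 TPM (median 29.8) in bulge cells, against 0 to 101.6 TPM (median 0) in hair germ cells, a difference of 3.66, and was held by 87.2% (72.6 to 95.7) of bulge cells and 11.8% (5.22 to 21.9) of hair germ cells. Cdh13, a cadherin without a cytoplasmic tail, lay at 0 to 260.3 TPM (median 75.5) in bulge cells, against 0 to 156.7 TPM (median 0) in hair germ cells, a difference of 3.93, and Duox1, a NADPH oxidase of epithelia, at 0 to 83.3 TPM (median 9.89) in bulge cells, against 0 to 63.5 TPM (median 0) in hair germ cells, a difference of 2.50.

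Others outside the lists were lower in the bulge. Lifr, the receptor of leukaemia inhibitory factor, lay at 0 to 76.1 TPM (median 0.910) in bulge cells, against 0 to 312.1 TPM (median 49.8) in hair germ cells, a difference of -3.48, and 65 of 68 hair germ cells held it. Ghr, the growth hormone receptor, was held by 1 of 39 bulge cells and 42 of 68 hair germ cells and differed by -2.51. Cpe, a carboxypeptidase that matures peptide hormones, lay at 0 to 122.8 TPM (median 0) in bulge cells, against 0 to 330.4 TPM (median 43.6) in hair germ cells, a difference of -3.34. Car12, a carbonic anhydrase, differed by -3.15, and Atp6v1b1, a subunit of the proton pump, by -3.05. Among 14 compared tetraspanins 3 (21.4%, beside 10.1% of all genes) were 2-fold lower and none higher. The tetraspanin median was -0.31, near that of all genes at -0.29, and 42.9% lay above 0, beside 29.1% of all genes. Tspan18 lay at 0 to 131.3 TPM (median 0) in bulge cells, against 0 to 277.8 TPM (median 70.2) in hair germ cells, a difference of -3.92.

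Some genes were strong in part of a compartment only. Ccl27b, a chemokine gene, was held by 41.03% (25.6 to 57.9) of bulge cells and 22.1% (12.9 to 33.8) of hair germ cells, at up to 1537 TPM in the bulge and 914.9 TPM in the germ. It has close copies in the mouse genome, Ccl27a among them, that can share reads, so the levels of both are uncertain. Myoc, myocilin, was held by 19 of 39 bulge cells and 16 of 68 hair germ cells, at up to 1316 TPM in the bulge and 1630.5 TPM in the germ. Dusp1, an immediate early phosphatase, was held by 24 of 39 bulge cells and 32 of 68 hair germ cells, with a single-cell maximum of 535 TPM in the bulge and 5906 TPM in the germ. Ucp2, a mitochondrial carrier, was held by 22 of 39 bulge cells and 55 of 68 hair germ cells and differed by -2.20.

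Levels in the later cells of the same table, which carry other title prefixes, were set beside these for a few genes as a description. The TPM were not rescaled. Ribosomal RNA took a median of 52.98% of TPM in P21 germ cells. It took 63.5% in P23 to P24 germ cells, 62.1% in the 16 P25 to P27 germ cells and 64.6% in P25 to P27 matrix cells. The part of that shift in these levels was not tested. Mean Foxi3 was 6.64 TPM in P21 bulge cells and 72.2 TPM in P21 germ cells, then 21.7 TPM in P23 to P24 germ cells, 23.5 TPM in P25 to P27 germ cells and 20.99 TPM in P25 to P27 matrix cells. Mean Wif1 was 0.784 TPM in P21 bulge cells and 47.8 TPM in P21 germ cells, then 16.5 TPM in P23 to P24 germ cells, 9.89 TPM in P25 to P27 germ cells and 23.04 TPM in P25 to P27 matrix cells. Mean Mfap2 was 11.4 TPM in P21 bulge cells and 92.4 TPM in P21 germ cells, then 19.2 TPM in P23 to P24 germ cells, 14.2 TPM in P25 to P27 germ cells and 42.1 TPM in P25 to P27 matrix cells. The P21 germ had the highest mean of the 5 groups for each of these 3 genes. Mean Bmp7 was 2.73 TPM in P21 bulge cells and 37.2 TPM in P21 germ cells, then 21.99 TPM in P23 to P24 germ cells, 16.4 TPM in P25 to P27 germ cells and 39.5 TPM in P25 to P27 matrix cells, so that matrix cells stood above the P21 germ. Mean Dmkn was 900.2 TPM in P21 bulge cells and 155.6 TPM in P21 germ cells, then 78.97 TPM in P23 to P24 germ cells, 268.6 TPM in P25 to P27 germ cells and 240.4 TPM in P25 to P27 matrix cells, with the P21 bulge highest.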

How the data were processed

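Values are the TPM deposited by the authors, made per the submitters' processing notes with Bowtie2 2.2.9 and RSEM 1.2.30 on mm10. The table has 46609 rows and 398 cells, and each cell sums to between 999999.38 and 1000000.67, so TPM keep no read depth. Reads were paired-end on a NextSeq 500 after Nextera XT tagmentation, per the labels' protocols. The 92 ERCC, 358 ribosomal RNA and 37 mitochondrial rows were left out of the compared genes but not out of TPM. Of the ribosomal RNA rows, 5 were added by name after the data were seen. Gene types and places came from GENCODE M21, which lacks 512 of the row identifiers, Rasgef1b's among them. For 22 of the compared genes the symbol stands on several rows, kept apart by identifier.

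From these, the mean log2(TPM + 1) per compartment, shares of cells and list medians were computed (Python 3.11.15, numpy 2.4.6, pandas 2.3.3, scipy 1.17.1), after a run on simulated data. Nothing was tested and no standard error was given, since each compartment counted as 1 sample. No doublet caller was run, and cells with many genes were left out as an alternative. No cell's values were identical to another's.

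The genes compared, the 63 lists and the comparisons were chosen with earlier results of these data known. Genes were named by rule. It takes the 25 largest differences in each direction that keep their sign after rescaling and as a ratio of mean TPM, without predicted models, pseudogenes and sort genes. It adds the 10 largest differences in share each way, up to 6 members of each list, 8 genes per compartment that are strong in 30% to 70% of cells, and the markers. Some it takes are not named, and some list members outside it were named after their values were seen. One item is not reported here. Alternatives changed the scaling, pseudocount, filter, cells and fold.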

Additional observations from a re-analysis of the deposited data

How the results depend on the processing

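No paired analysis was possible because each compartment is 1 pool of cells, whose numbers only name them. In the main setting 3.74% of the compared genes were 2-fold or more higher in the bulge and 10.1% lower. Leaving the rows of spike-ins, ribosomal RNA and mitochondria out of TPM gave 6.71% and 15.5%, subtracting the median difference 6.56% and 4.57%, a pseudocount of 0.1 gave 7.86% and 27.03% and of 10 gave 1.13% and 1.01%, a fold of 4 gave 0.993% and 1.03%, and no filter gave 1.52% and 4.20%, with 22238 genes compared. The number of lists with a median 0.5 or more from the median gene was 20, and it was 8 with a pseudocount of 10, 13 with genes seen in 10% of cells and 5 with no filter. The median of the TGF-beta response list turned to -0.34 with genes seen in 10% of cells and to -0.21 with no filter, as members seen in few cells entered. Of the genes taken by the naming rule and 2-fold apart, none changed sign under any of these alternatives, though for the largest differences the rule itself asked for the same sign after rescaling and as a ratio of mean TPM. As that ratio 57 of them came under 2-fold, and over all genes 55.2% of the higher and 59.1% of the lower calls were kept. Of the named genes 50.7% came under 2-fold with a pseudocount of 10, 35 with the median subtracted, 12 in cells with 5000 to 9000 genes, 6 with every cell, 5 in cells with at least 4000 genes, 1 without the cells with the most genes and 1 without the cells that hold fibroblast or muscle markers (the last chosen after the data were seen). Counts of genes 50 points apart in share moved by at most 1.5 times. Depth per cell is unknown, so an absent gene may be undetected.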
